A study of Mus musculus with 10 samples.

Results

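Glypicans and syndecans are families of cell-surface proteins that carry heparan sulfate, and their 10 mouse genes were followed here in cells sorted as astrocytes. A gene was followed through the probe sets that the platform annotation gives to its symbol alone, and where there were several, the probe set that was brightest over all 10 arrays was taken. All 10 genes (Gpc1 to Gpc6 and Sdc1 to Sdc4) were found this way, among 22180 genes with such a probe set. All 10 also lay above the cutoff for dim probe sets, a mean log2 level of 5.32, which left 17712 genes in the test. The samples were cortical cells from mice 8 weeks of age, collected by FACS through an EGFP reporter that astrocytes express, and every group carries that reporter. Of the 10 Affymetrix arrays, 5 are labelled FMR1-KO, with no other allele or treatment given, and 5 are labelled Control with the genotype wild-type. The labels give neither the promoter that drives EGFP nor whether a replicate is 1 animal or a pool, so a p-value here speaks only of how much these 10 samples varied. RefSeq places Gpc5 and Gpc6 on chromosome 14, Gpc3 and Gpc4 on X, Gpc1 on 1, Gpc2 on 5, Sdc1 on 12, Sdc2 on 15, Sdc3 on 4 and Sdc4 on 2.

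Glypicans are held at the cell surface by a lipid anchor, whereas syndecans span the cell membrane and end in a short cytoplasmic tail that binds adaptor proteins. Both carry long sulfated sugar chains that bind growth factors, guidance cues and matrix proteins. Glypicans 4 and 6 released by astrocytes are known to recruit AMPA-type glutamate receptors to young synapses, and glypican 5 is a known astrocyte-enriched member. FMRP, which Fmr1 encodes, binds messenger RNAs and holds back their translation, and fragile X syndrome follows its loss. The series states a comparison of FMR1-KO with control.

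The arrays stood apart in ways that bear on these genes. Fmr1 read 8.22 ± 0.15 on the arrays labelled FMR1-KO and 8.04 ± 0.26 on Control arrays (log2 level, SD, n = 5 each), so its signal was not lower under that label. No label says where Fmr1 is disrupted, and a probe set outside that place would check nothing. Over 12 astrocyte markers, the mean log2 level per array ran from 10.06 to 11.03 on the arrays labelled FMR1-KO and from 9.84 to 10.58 on Control arrays. Over the 13 measured of 14 microglia markers it ran from 9.35 to 10.77 on the arrays labelled FMR1-KO and from 10.08 to 11.10 on Control arrays. FMR1-KO arrays 1 and 2 and Control array 1 had the lowest microglia means (9.91, 9.35 and 10.08) and the highest astrocyte means (10.98, 11.03 and 10.58), and they are called the microglia-low arrays below. Xist, whose RNA coats the silenced X chromosome of females, was at most 5.23 on 8 arrays but 10.60 on Control array 2 and 10.98 on Control array 3. Uty, a gene of the Y chromosome, read 4.82 and 4.77 on these Control arrays and 7.64 to 8.30 on the other 8 arrays. No array labelled FMR1-KO had this pattern. In such bulk samples, fewer cells of a type and less RNA per cell cannot be told apart.

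Between the groups, 8 of the 10 genes had a higher mean and 2 a lower mean on the arrays labelled FMR1-KO, while 46.8% of all genes tested had a higher mean. The median difference of the 10 genes was 0.14 on the log2 scale, against -0.01 over all genes. None of the 10 passed the threshold, an adjusted p under 0.05 (limma, two-sided, Benjamini-Hochberg over all genes), as did 0% of all genes, and the smallest adjusted p of any gene was 0.654. At an unadjusted p under 0.05 there was 1 of the 10, Gpc5, where 7.53% of all genes lay under that value. The groups overlapped for every member, whereas they did not for 0.965% of all genes. With a marker mean of each array as a covariate, 5 of the 10 members were higher (microglia) or 3 (astrocyte), where 48.2% and 46.3% of all genes had a higher adjusted difference. All 12 astrocyte markers had a higher mean and all 13 microglia markers a lower mean under the FMR1-KO label (medians 0.45 and -0.57).

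**Figure D1:**
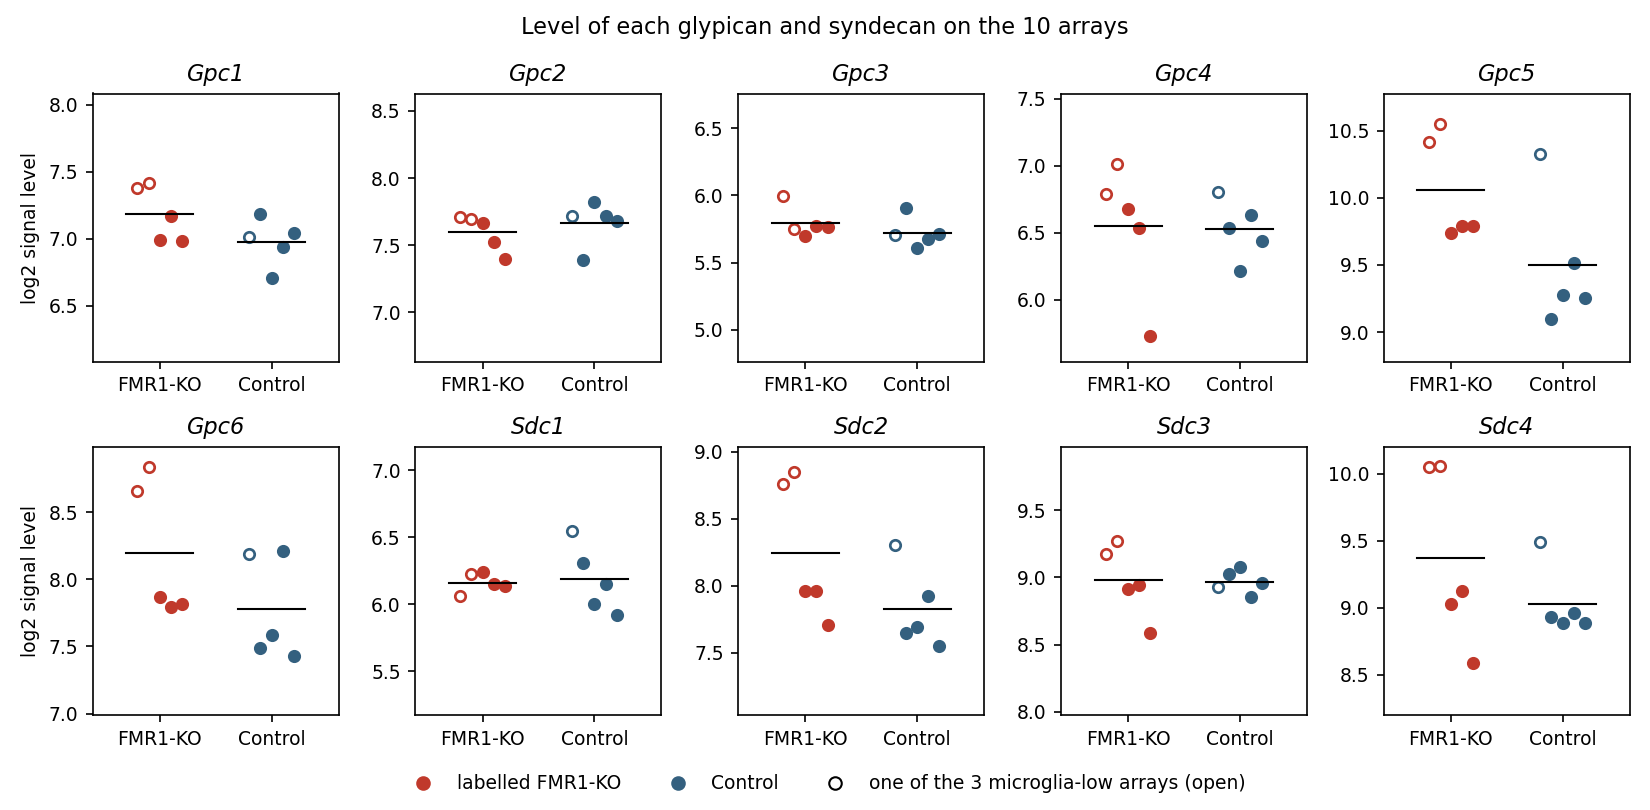
Log2 signal level of each of the 10 genes on each array, with the 5 arrays labelled FMR1-KO on the left and the 5 Control arrays on the right of each panel. Lines are group means, open circles are the 3 microglia-low arrays, and every panel spans the same height, so that Gpc5, Gpc6, Sdc2, Sdc4 and Gpc4 can be seen to vary most.

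Some members varied far more over the 10 arrays than others. The SD of Gpc5 over all arrays, 0.51 on the log2 scale, was larger than that of 96.6% of the genes tested. Sdc4 with an SD of 0.50, Gpc6 with 0.48, Sdc2 with 0.46 and Gpc4 with 0.36 followed, above 96.3%, 95.5%, 94.6% and 88.9% of genes. Gpc3 and Gpc2 varied least, with SDs of 0.11 and 0.15. Gpc3 had a mean of 5.76, under the median level of every array (6.11 to 6.24), and Sdc1 a mean of 6.17, within that span. Whether readings this dim reflect expression was not tested. Levels of different probe sets are not comparable with each other, so no order of the genes by level is given.

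The upstream sequence of Gpc5 and Sdc4, which varied most, is set beside that of Gpc4 and Sdc3, the members of each family whose difference between the groups was nearest to 0. Each window runs from 250 bases before to 50 bases after the gene start (RefSeq, GRCm38.p6, written along the gene's strand). Such a window was found for 7 of the 10 genes. The Gpc5 window lies at chr14:115091965-115092264 on the plus strand and the Gpc4 window at chrX:52164874-52165173 on the minus strand. The Sdc4 window lies at chr2:164443139-164443438 on the minus strand and the Sdc3 window at chr4:130792287-130792586 on the plus strand. Capitals mark matches on either strand to the GC box GGGCGG, the CCAAT box CCAAT, the TATA box core TATAA and the nuclear factor I motif TTGGC.
Gpc5: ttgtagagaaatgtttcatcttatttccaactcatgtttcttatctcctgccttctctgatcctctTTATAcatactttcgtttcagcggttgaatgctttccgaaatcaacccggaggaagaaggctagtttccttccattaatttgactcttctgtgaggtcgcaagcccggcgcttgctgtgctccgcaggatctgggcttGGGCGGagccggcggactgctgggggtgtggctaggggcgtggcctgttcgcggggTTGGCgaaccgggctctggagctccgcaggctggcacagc
Gpc4: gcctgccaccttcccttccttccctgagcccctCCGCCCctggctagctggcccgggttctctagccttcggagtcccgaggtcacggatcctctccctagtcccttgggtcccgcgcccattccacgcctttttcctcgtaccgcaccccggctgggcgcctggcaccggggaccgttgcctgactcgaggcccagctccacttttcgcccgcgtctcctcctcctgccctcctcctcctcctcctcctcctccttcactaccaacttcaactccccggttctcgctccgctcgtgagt
Sdc4: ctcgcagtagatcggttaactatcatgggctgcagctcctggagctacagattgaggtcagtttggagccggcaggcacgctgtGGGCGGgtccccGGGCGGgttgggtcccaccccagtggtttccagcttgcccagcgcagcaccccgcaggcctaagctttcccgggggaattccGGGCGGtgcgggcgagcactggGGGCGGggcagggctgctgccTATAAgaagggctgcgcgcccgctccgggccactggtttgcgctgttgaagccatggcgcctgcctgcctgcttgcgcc
Sdc3: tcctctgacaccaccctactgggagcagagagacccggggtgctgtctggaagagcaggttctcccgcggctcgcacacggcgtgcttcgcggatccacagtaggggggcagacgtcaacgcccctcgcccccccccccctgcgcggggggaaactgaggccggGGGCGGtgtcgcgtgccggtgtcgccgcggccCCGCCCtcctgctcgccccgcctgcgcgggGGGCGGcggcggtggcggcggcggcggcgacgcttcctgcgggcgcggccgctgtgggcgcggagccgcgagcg
The Gpc5 window held 1 GC box, 1 TATA core and 1 nuclear factor I motif, and the Gpc4 window held 1 GC box. The Sdc4 window held 4 GC boxes and 1 TATA core, and the Sdc3 window held 3 GC boxes. No match overlapped another in these windows. Of 32851 promoter windows of 300 bases, 35.7% held a GC box, 37.4% a CCAAT box, 24.9% a TATA core and 46.7% a nuclear factor I motif. CpG dinucleotides numbered 17 in the Gpc5 window, 22 in both the Gpc4 and Sdc4 windows and 44 in the Sdc3 window, against a median of 7 over all windows. These matches describe letters in the windows and show no binding.

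Among the glypicans, Gpc5 had the largest difference of the 10 genes. It read 10.42, 10.55, 9.74, 9.79 and 9.79 on arrays 1 to 5 labelled FMR1-KO, against 10.33, 9.10, 9.28, 9.52 and 9.25 on Control arrays 1 to 5. Control array 1 alone reached into the FMR1-KO range, and the other 4 Control arrays lay below every array labelled FMR1-KO. The means were 10.06 ± 0.39 on the arrays labelled FMR1-KO and 9.50 ± 0.49 on Control arrays (SD, n = 5 each). The difference of 0.56 ± 0.24 (SE, 95% interval 0.05 to 1.08) is a ratio of 1.48 and did not pass the test (limma adjusted p = 0.654, unadjusted 0.0354). Its unadjusted p exceeded 0.05 when FMR1-KO array 1 or 2 or Control array 2, 3, 4 or 5 was left out, and the difference itself stayed between 0.44 and 0.77 when any 1 array was left out.

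On the 7 arrays other than the microglia-low ones, Gpc5 read 9.74 to 9.79 on 3 arrays labelled FMR1-KO and 9.10 to 9.52 on 4 Control arrays, so the groups did not overlap. Control array 1, the single Control array that overlapped on all 10, is among the arrays left out, so this gap follows from the values given above and is not a separate result. Groups did not overlap for 9.27% of all genes on these 7 arrays (3.99% with the higher level under the FMR1-KO label). The microglia marker mean did not overlap there either, at 10.49 to 10.77 under the FMR1-KO label and 10.88 to 11.10 on Control arrays. The astrocyte marker mean overlapped, at 10.06 to 10.28 and 9.84 to 10.21. These 7 arrays were thus not alike in microglia signal between the groups, and its part in the Gpc5 gap was not tested. The Gpc5 difference was 0.49 ± 0.11 (SE, limma adjusted p = 0.293, unadjusted 0.00112), where 8.9% of all genes had an unadjusted p under 0.05, and the other 9 members overlapped. Without the Xist-high Control arrays 2 and 3 it was 0.36 ± 0.28, with a limma adjusted p of 0.893. Adjusted for the astrocyte marker mean of each array, the Gpc5 difference was 0.13 ± 0.12 (SE, limma adjusted p = 0.988). Adjusted for the microglia marker mean, it was 0.13 ± 0.14 (SE, limma adjusted p = 0.9998).

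Gpc6, the neighbour of Gpc5 on chromosome 14 in the RefSeq order of protein-coding genes, encodes a glypican that astrocytes are known to release onto synapses. It read 8.66, 8.84, 7.87, 7.79 and 7.81 on the arrays labelled FMR1-KO, against 8.19, 7.49, 7.59, 8.21 and 7.43 on Control arrays. The 2 microglia-low arrays labelled FMR1-KO were highest, Control arrays 1 and 4 came next, and the groups overlapped. The difference was 0.41 ± 0.24 (SE, limma adjusted p = 0.678). It was 0.15 ± 0.17 without the microglia-low arrays and -0.035 ± 0.11 with the astrocyte marker mean as a covariate.

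Gpc4, the other glypican known as a synaptogenic factor of astrocytes, gave no such pattern. It read 6.79, 7.01, 6.67, 6.54 and 5.73 on the arrays labelled FMR1-KO, against 6.81, 6.53, 6.21, 6.63 and 6.44 on Control arrays. FMR1-KO array 5 lay below every Control array and FMR1-KO array 2 above every one. The difference was 0.03 ± 0.21 (SE, 95% interval -0.42 to 0.47, limma adjusted p = 0.982), an interval that leaves room for a sizeable change in either direction. It was 0.23 without FMR1-KO array 5 and -0.09 without FMR1-KO array 2. Gpc4 and its neighbour Gpc3 lie on the X chromosome, as Fmr1 does, and on the Xist-high Control arrays Gpc4 read 6.53 and 6.21, within or below the 6.44 to 6.81 of the other Control arrays.

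Gpc1, a glypican of neurons and glia that binds fibroblast growth factors and Slit proteins, read 7.38, 7.42, 6.99, 7.17 and 6.98 on the arrays labelled FMR1-KO, against 7.02, 7.18, 6.71, 6.94 and 7.04 on Control arrays. FMR1-KO arrays 1 and 2 lay above all Control arrays and the rest overlapped. The difference was 0.21 ± 0.12 (SE, limma adjusted p = 0.672). The array has a dimmer probe set for Gpc1, and it went the other way, with 6.31 ± 0.10 on the arrays labelled FMR1-KO and 6.43 ± 0.18 on Control arrays (SD, n = 5 each), a difference of -0.13 ± 0.09 (SE), so a direction for Gpc1 depends on the probe set.

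The remaining glypicans differed little on the probe sets kept. Gpc2, known from developing neurons, ranged from 7.39 to 7.71 on the arrays labelled FMR1-KO and from 7.39 to 7.82 on Control arrays, a difference of -0.07 ± 0.10 (SE). Another probe set is shared in the annotation by Gpc2 and Gal3st4 and was left out for that reason. It read 8.23 ± 0.56 on the arrays labelled FMR1-KO and 8.57 ± 0.56 on Control arrays (SD), a difference of -0.35 ± 0.31 (SE). Which of the genes it reads cannot be told. Gpc3, known as an inhibitor of hedgehog signalling, ranged from 5.70 to 5.99 on the arrays labelled FMR1-KO and from 5.61 to 5.90 on Control arrays, a difference of 0.07 ± 0.09 (SE). Its highest value, 5.99, was on FMR1-KO array 1, which also had the highest mean of the fibroblast and meningeal markers (7.26, against 6.46 to 7.03 on the other 9 arrays). The part of those cells in the Gpc3 reading was not tested, and all Gpc3 values lay below the array medians (6.11 to 6.24).

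Among the syndecans, Sdc2 and Sdc4 had the larger differences. Sdc2, a syndecan known for shaping dendritic spines in neurons, read 8.76, 8.85, 7.96, 7.96 and 7.71 on the arrays labelled FMR1-KO, against 8.30, 7.65, 7.70, 7.93 and 7.55 on Control arrays. The microglia-low arrays of both groups were the 3 highest. The difference was 0.42 ± 0.23 (SE, 95% interval -0.07 to 0.92, limma adjusted p = 0.670), a ratio of 1.34. It was 0.17 ± 0.12 without the microglia-low arrays and -0.018 ± 0.084 with the astrocyte marker mean as a covariate.

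Sdc2 followed the astrocyte markers more closely than any other member. The Sdc2 level minus the astrocyte marker mean of the same array lay between -2.35 and -2.18 on all 10 arrays, a width of 0.16, while the SD of the Sdc2 level was 0.46. The same width was 0.49 for Gpc6 and for Gpc5, 0.56 for Sdc4 and 0.96 to 1.39 for the other 6 members. The marker mean itself ran from 9.84 to 11.03, so a gene whose own level hardly changes also gets a large width. The levels of those 6 members spanned from 0.38 (Gpc3) to 1.28 (Gpc4). Pearson's r between Sdc2 and the astrocyte marker mean was 0.99 over 10 arrays and 0.94 over the 7 arrays that are not microglia-low. For Gpc5 the same values were 0.95 and 0.84, for Gpc6 0.96 and 0.81, for Sdc4 0.95 and 0.42, for Gpc4 0.67 and 0.24, and for Sdc3 0.56 and -0.30. These arrays share their normalization and their mixture of cells, so the values are descriptions.

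**Figure D2:**
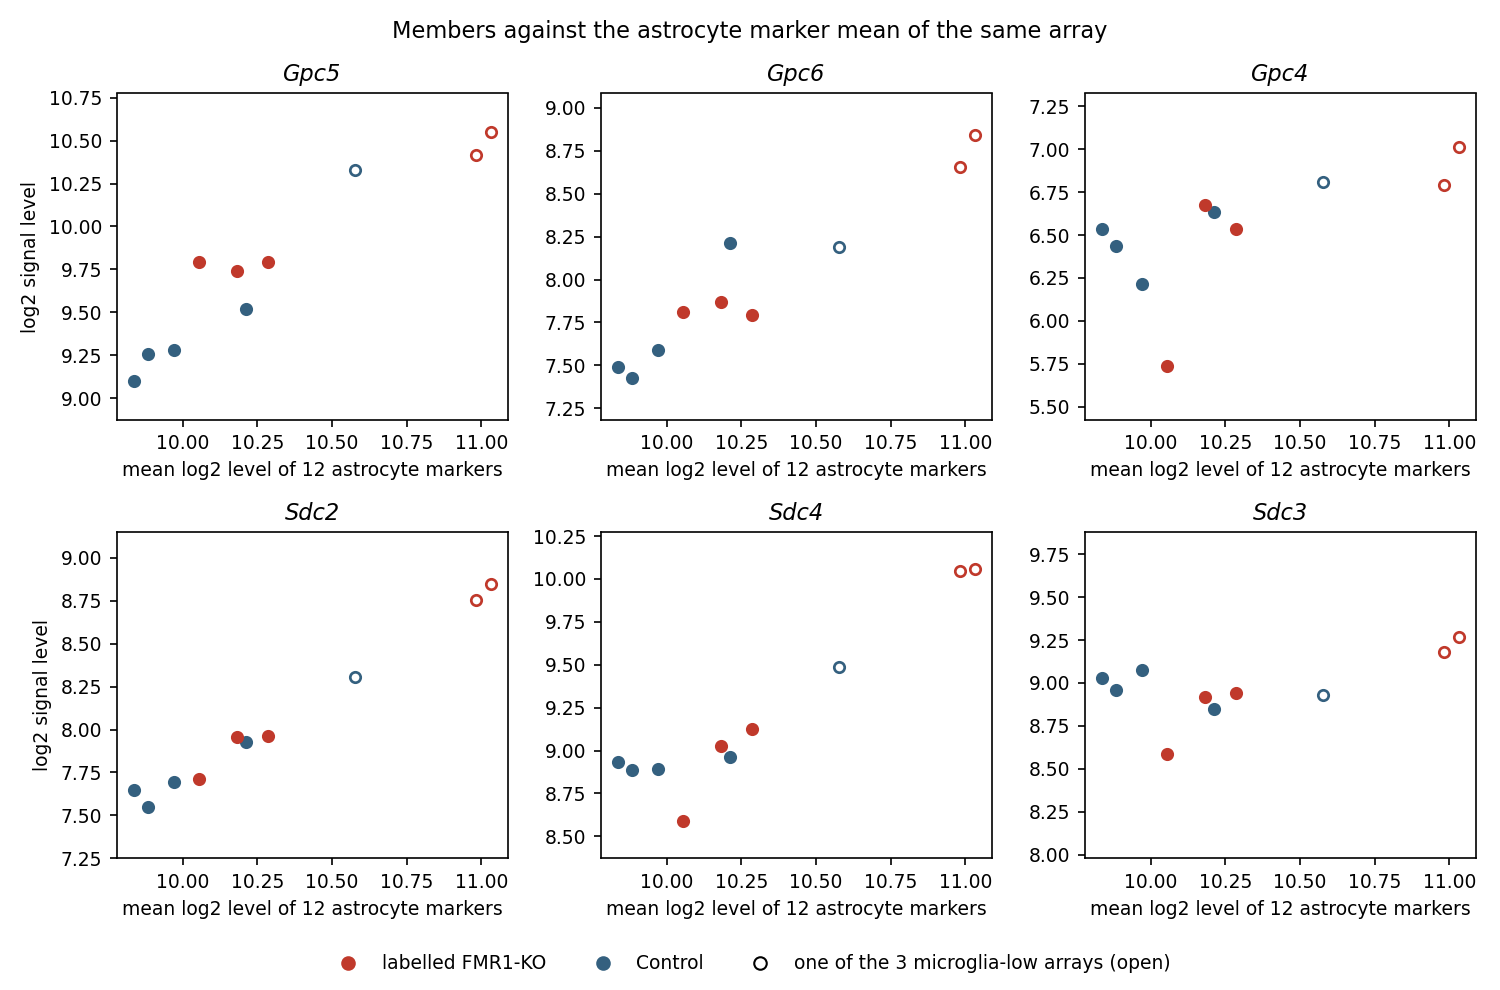
Log2 level of 6 members (vertical axis) against the mean log2 level of 12 astrocyte markers on the same array (horizontal axis), 1 point per array, red for arrays labelled FMR1-KO, blue for Control arrays and open for the 3 microglia-low arrays. Sdc2 lies along a line, Gpc5 has its 3 filled FMR1-KO points above the filled Control points, and FMR1-KO array 5 is the lowest point for Gpc4, Sdc3 and Sdc4.

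Sdc4, which is enriched at focal adhesions and binds protein kinase C alpha, spread unevenly. It read 10.05, 10.06, 9.02, 9.13 and 8.59 on the arrays labelled FMR1-KO, against 9.49, 8.93, 8.89, 8.96 and 8.89 on Control arrays. FMR1-KO arrays 1 and 2 lay above every Control array and FMR1-KO array 5 below every one, and the SD was 0.66 on the arrays labelled FMR1-KO and 0.26 on Control arrays. The difference was 0.34 ± 0.26 (SE, limma adjusted p = 0.742). It was -0.0040 ± 0.13 without the microglia-low arrays and 0.53 without FMR1-KO array 5.

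Sdc3, the syndecan best known from neurons and axons, read 9.18, 9.27, 8.92, 8.94 and 8.59 on the arrays labelled FMR1-KO, against 8.93, 9.03, 9.08, 8.85 and 8.96 on Control arrays. FMR1-KO array 5 was again the lowest of the 10 arrays, as it was for Gpc4 and Sdc4. That array also had the lowest mean for the polymerase (7.36), sulfation (6.76), lysosomal (8.01) and syndecan partner genes (7.65) followed below. For the other heparan sulfate lists it did not. The Sdc3 difference was 0.01 ± 0.12 (SE, 95% interval -0.25 to 0.27, limma adjusted p = 0.988). Sdc1, known mainly from epithelia and plasma cells, ranged from 6.06 to 6.24 on the arrays labelled FMR1-KO and from 5.92 to 6.54 on Control arrays, a difference of -0.02 ± 0.11 (SE). Its dimmer probe set gave 0.07 ± 0.09.

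**Figure D3:**
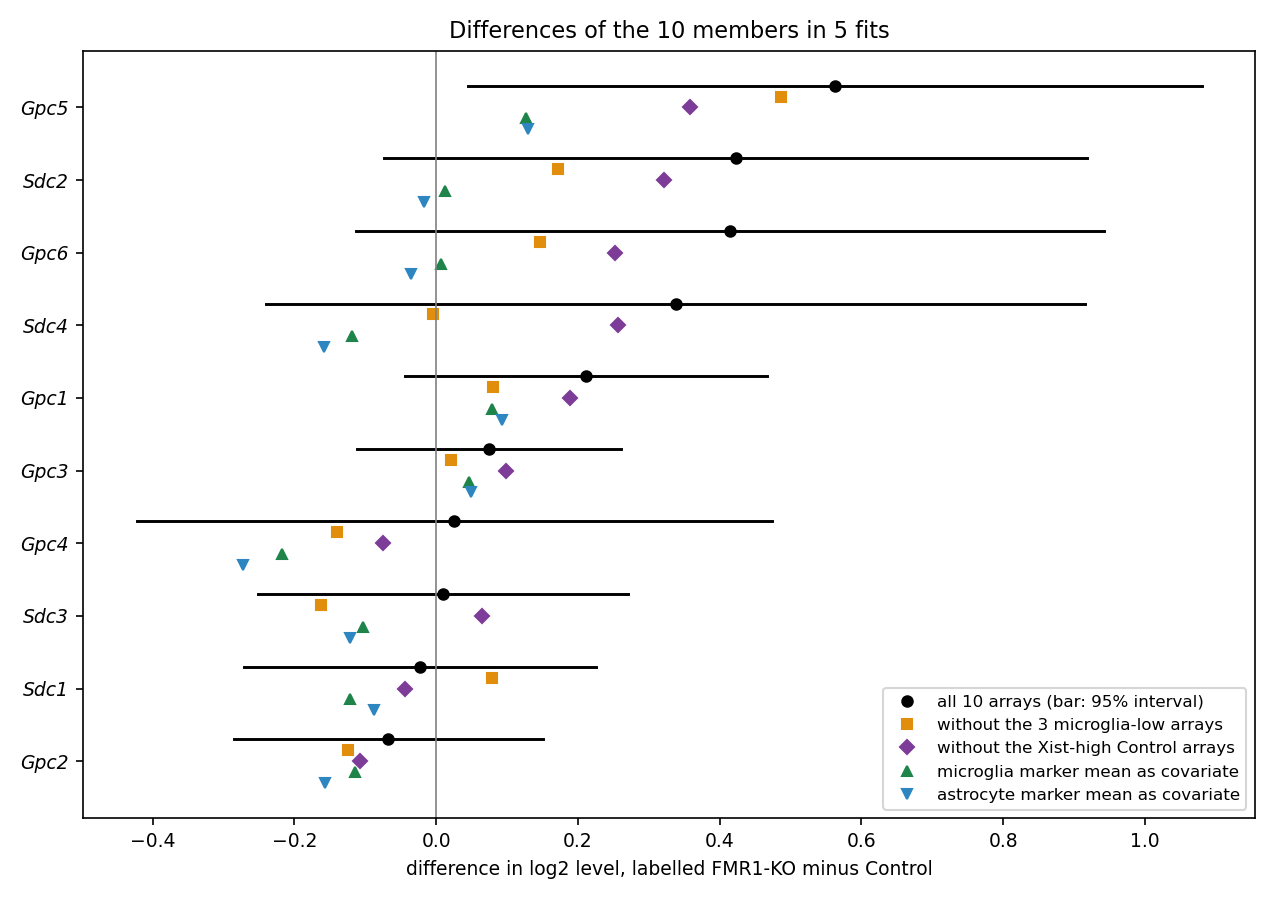
Difference in log2 level, labelled FMR1-KO minus Control, for the 10 genes in 5 fits, sorted by the fit to all 10 arrays, whose bar is the 95% interval. The bar of Gpc5 alone stays to the right of 0. When a marker mean is a covariate, the 4 largest differences become smaller in size. Sdc4 then lies below 0 in both such fits, and Gpc6 and Sdc2 in the astrocyte fit. Gpc2, Gpc4, Sdc1 and Sdc3 lie below 0 and further from it in both.

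The genes whose levels most resembled each member's were taken as the 2 with the highest Pearson's r over the 10 arrays, with r over the 7 arrays that are not microglia-low beside it. For Gpc5 they were Snx32 (0.99 and 0.97) and Enah (0.99 and 0.98), and for Gpc6 Tenm3 (0.99 and 0.96) and Fermt2 (0.98 and 0.96). Gpc4 resembled Cds2 (0.98 and 0.99) and Mrps23 (0.98 and 0.98). Sdc2 resembled Aplp1 (0.996 and 0.962) and Slc1a4 (0.995 and 0.966), Sdc4 Asphd2 (0.99 and 0.90) and Mboat2 (0.98 and 0.77), and Sdc3 Orc4 (0.95 and 0.92) and Hyal2 (0.95 and 0.93). Gpc1 resembled Igdcc3 (0.96 and 0.98) and Fgd1 (0.95 and 0.92), Gpc2 Pet100 (0.93 and 0.94) and Azi2 (0.93 and 0.97), and Sdc1 Pla2g12a (0.93 and 0.83) and Foxp4 (0.93 and 0.84). Gpc3 resembled Slc6a13 (0.93 and 0.94), which is on the list of fibroblast and meningeal markers, and Gas2l2 (0.92 and 0.86). The search left out the other members, predicted genes, olfactory and vomeronasal genes, small RNAs, pseudogenes and all symbols that start with Rn. The values over 10 arrays are the highest for each member among the rest of the 17712 genes tested. A search this wide picks high values. The 7 arrays are among the 10 used to pick the genes, so the second value is no separate check.

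The members varied together in part. Over 10 arrays Pearson's r was 0.96 between Sdc2 and Sdc4 and between Sdc2 and Gpc6, 0.92 between Sdc2 and Gpc5 and 0.89 between Gpc5 and Gpc6. Over the 7 arrays that are not microglia-low those values were 0.56, 0.79, 0.71 and 0.62. The pair Gpc4 and Sdc4 had 0.79 over 10 arrays and 0.89 over the 7. The neighbouring pair Gpc3 and Gpc4 had 0.19 and 0.026.

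The enzymes that build, trim and break down heparan sulfate, and the proteins that bind it, were followed by role, 94 genes in all, of which 86 were measured above the dim cutoff. Of these, 41 had a higher and 45 a lower mean under the FMR1-KO label. Their median difference was -0.0060, and none passed the test in either direction (limma adjusted p of 0.654 or higher), as 0% of all genes did. Unadjusted p-values under 0.05 were found for 6 genes in the higher direction, where 4% of all genes had one, and for 2 in the lower, where 3.53% had one.

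Genes that start the chain came first. A higher mean was found for 6 of 7 linker genes, and the median difference was 0.05. Xylt1, the xylosyltransferase that attaches the first sugar to the core protein, read 9.17 ± 0.37 on the arrays labelled FMR1-KO and 8.64 ± 0.30 on Control arrays (SD, n = 5 each), a difference of 0.53 ± 0.19 (SE). It was 0.40 ± 0.10 without the microglia-low arrays and 0.19 ± 0.09 with the astrocyte marker mean as a covariate. Pxylp1, the phosphatase that removes a phosphate from that xylose, differed by 0.17 ± 0.08, Xylt2 by 0.13 ± 0.09 and the glucuronyltransferase B3gat3 by -0.10 ± 0.09. Of the 5 polymerase genes 3 had a higher mean, with Extl1 at 0.21 ± 0.13, Ext2 at 0.16 ± 0.11, Ext1 at 0.06 ± 0.14 and Extl3 at -0.11 ± 0.15 (difference ± SE).

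Of 20 genes for sulfation, epimerisation and sulfate supply 15 were measured. The mean was higher for 4 and lower for 11, and the median difference was -0.03. Papss2, which makes the sulfate donor, stood apart at 8.97 ± 0.82 on the arrays labelled FMR1-KO and 8.08 ± 0.45 on Control arrays (SD, n = 5 each), a difference of 0.88 ± 0.35 (SE), larger than that of any member. That difference was 0.39 ± 0.21 without the microglia-low arrays and 0.24 ± 0.16 with the astrocyte marker mean as a covariate. The sulfotransferases Hs3st4 and Ndst2 differed by -0.16 ± 0.11 and -0.18 ± 0.12, and the donor transporter Slc35b2 by -0.11 ± 0.10.

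Genes that release core proteins or edit the chain went both ways. The mean was higher for 2 of 10 such genes, and the median difference was -0.04. Mmp14, a membrane protease able to shed syndecans, differed by 0.43 ± 0.15 (SE) and Gpld1, a phospholipase that cuts lipid anchors of the glypican kind, by 0.54 ± 0.25. Without the microglia-low arrays these were 0.34 ± 0.10 for Mmp14 and 0.28 ± 0.13 for Gpld1. Mmp14 was at 0.19 ± 0.12 adjusted for the microglia marker mean and 0.18 ± 0.11 for the astrocyte marker mean. Gpld1 was at 0.07 ± 0.14 and 0.05 ± 0.09 in the same fits. Adam10, another sheddase, read 9.46 ± 0.32 on the arrays labelled FMR1-KO and 9.90 ± 0.29 on Control arrays (SD, n = 5 each), a difference of -0.44 ± 0.17 (SE), which was -0.39 ± 0.11 without the microglia-low arrays and -0.12 ± 0.10 adjusted for the microglia marker mean. Mmp9 differed by -0.15 ± 0.12. Of 7 measured lysosomal genes 5 had a lower mean, with a median of -0.24, and the sulfatase Arsg differed by -0.40 ± 0.17 and the glucosaminidase Naglu by -0.34 ± 0.17. The iduronate sulfatase Ids differed by -0.24 ± 0.13 and the iduronidase Idua by 0.19 ± 0.12. That median was -0.040 adjusted for the microglia marker mean, with Arsg at -0.14 ± 0.13, Naglu at -0.04 ± 0.11 and Ids at -0.29 ± 0.14. Idua was at 0.09 ± 0.13 in that fit. Without the microglia-low arrays Arsg was at -0.21 ± 0.14 and Naglu at -0.31 ± 0.13. Ids and Idua were then at -0.32 ± 0.16 and 0.06 ± 0.12.

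**Figure D4:**
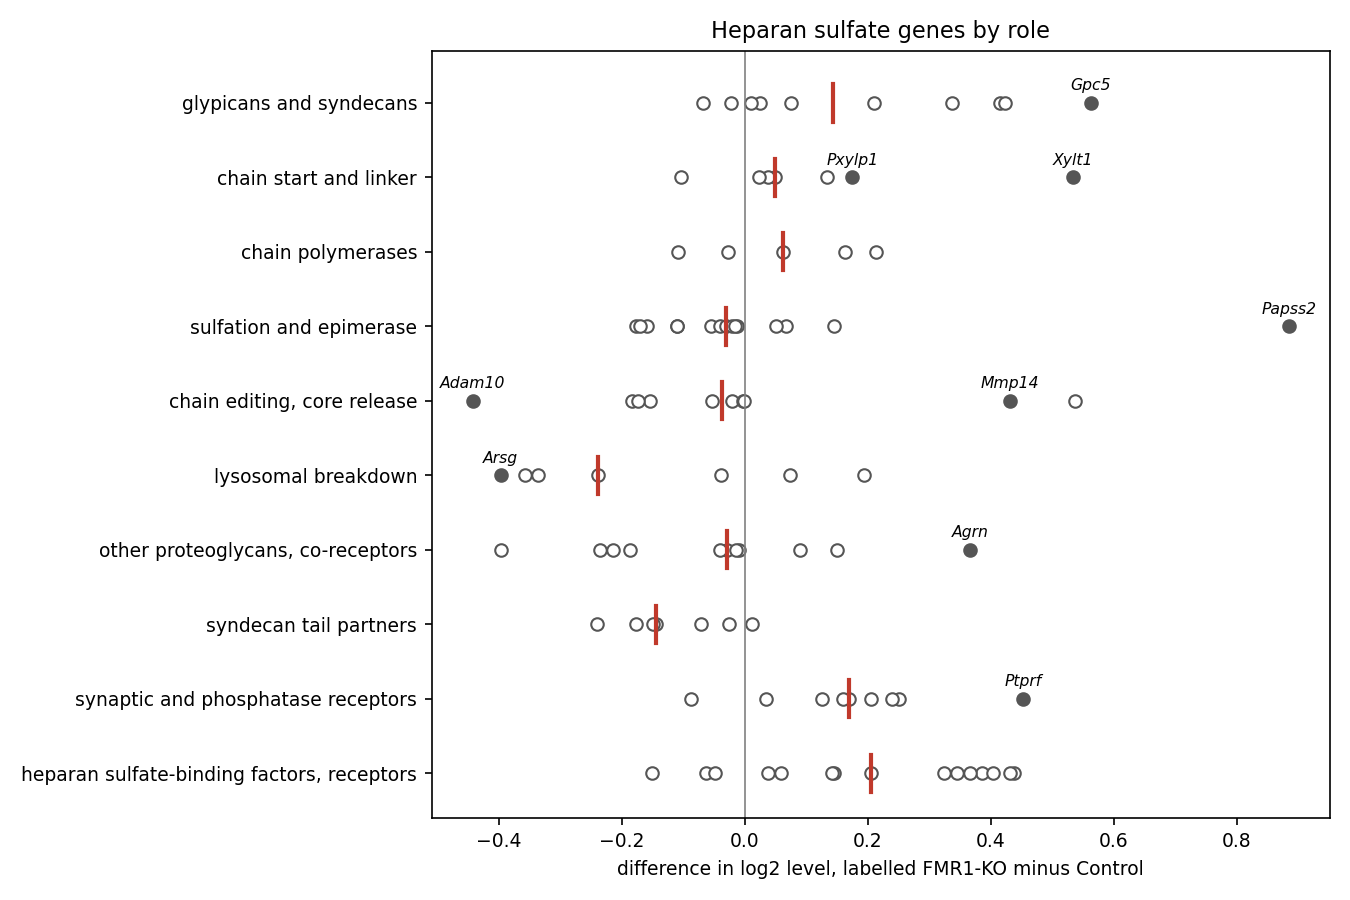
Difference in log2 level, labelled FMR1-KO minus Control, for the glypicans and syndecans and for 9 lists of heparan sulfate genes, 1 circle per gene, filled and named where the unadjusted p was under 0.05. Red bars are the medians of each row, which run from -0.24 for lysosomal breakdown to 0.21 for the binding factors and receptors.

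Among 11 other proteoglycans and co-receptors the mean was higher for 3, and the median difference was -0.03. Agrn, the basement membrane proteoglycan agrin, differed by 0.37 ± 0.15 (SE), the testican Spock1 by -0.24 ± 0.12, the proteoglycan of blood cell granules Srgn by -0.40 ± 0.22 and the co-receptor Nrp1 by -0.19 ± 0.11. Adjusted for the microglia marker mean, Agrn was at 0.11 ± 0.11, Srgn at -0.05 ± 0.16 and Nrp1 at -0.01 ± 0.10. Spock1 was at -0.18 ± 0.14 in that fit. With the astrocyte marker mean instead, Agrn was at 0.12 ± 0.10 and Spock1 at -0.12 ± 0.12. Srgn and Nrp1 were then at -0.14 ± 0.20 and -0.03 ± 0.10. On the arrays that are not microglia-low, Agrn was at 0.33 ± 0.10 and Srgn at -0.46 ± 0.16. Spock1 and Nrp1 were there at -0.24 ± 0.15 and -0.15 ± 0.10. Of 7 genes for partners of the syndecan tail 6 had a lower mean, with a median of -0.14. Sdcbp, which encodes syntenin, differed by -0.24 ± 0.15, the scaffold Cask by -0.14 ± 0.09, the Rac activator Tiam1 by -0.18 ± 0.13 and protein kinase C alpha, Prkca, by -0.15 ± 0.12. Adjusted for the microglia marker mean, Sdcbp was at -0.06 ± 0.14, Tiam1 at 0.02 ± 0.11 and Prkca at 0.04 ± 0.11. Cask stayed at -0.15 ± 0.11 in that fit. With the microglia-low arrays left out, Sdcbp was at -0.29 ± 0.15 and Cask at -0.23 ± 0.11. Tiam1 and Prkca were then at -0.03 ± 0.11 and -0.09 ± 0.12.

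Of 9 measured genes for synaptic partners of glypicans and for heparan sulfate-binding receptor phosphatases, the mean was higher for 8 and the median difference was 0.17. Ptprf, a receptor phosphatase that binds heparan sulfate, differed by 0.45 ± 0.20 (SE), Gpr158, a receptor that binds glypican 4, by 0.25 ± 0.13, the AMPA receptor subunit Gria1 by 0.24 ± 0.15 and the pentraxin Nptx1 by 0.17 ± 0.11. Adjusted for the microglia marker mean, Ptprf was at 0.11 ± 0.14, Gpr158 at 0.11 ± 0.13 and Gria1 at -0.01 ± 0.11. Nptx1 was at 0.14 ± 0.13 in that fit. With the microglia-low arrays left out, Ptprf was at 0.42 ± 0.13 and Gpr158 at 0.10 ± 0.12. Gria1 and Nptx1 were then at 0.14 ± 0.12 and 0.12 ± 0.14. Of 15 heparan sulfate-binding factors and their receptors the mean was higher for 12 and the median difference was 0.21, among them Ptprz1 at 0.44 ± 0.24, pleiotrophin (Ptn) at 0.43 ± 0.24 and Fgf1 at 0.32 ± 0.18, while Fgf9 was at -0.15 ± 0.08. Adjusted for the microglia marker mean, Ptprz1 was at 0.0041 ± 0.13, Ptn at 0.0071 ± 0.15 and Fgf1 at 0.03 ± 0.13. Fgf9 was at -0.17 ± 0.09 in that fit. On the arrays that are not microglia-low, Ptprz1 was at 0.20 ± 0.15 and Ptn at 0.18 ± 0.17. Fgf1 and Fgf9 were there at 0.09 ± 0.10 and -0.13 ± 0.10. This list shares Fgfr3 with the astrocyte markers. With the astrocyte marker mean as a covariate the medians of these lists were -0.00046 and -0.050.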

How the data were processed

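RNA of 10 samples was read on Affymetrix whole-transcript arrays. Per the labels' protocols the cDNA was amplified, fragmented and labelled with biotin, and per the series' design text the authors used GeneSpring 13.1.1. The deposited values are log2 signal levels per probe set, a scale read from the values (4.31 to 13.9, array medians 6.11 to 6.24). How background was removed and arrays were normalized is not stated by the labels.

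Of 33793 probe sets, 23521 have 1 gene symbol, 1814 several and 8458 none listed. The brightest single-symbol probe set per gene was kept, and probe sets with a mean under the 25th percentile were left out. Differences, FMR1-KO minus Control, were fitted by limma 3.58.1 (lmFit, eBayes; R 4.3.3) without the replicate number and were checked on simulated data. Samples were grouped by their titles, which give replicate numbers 1 to 5. Correlations between arrays ran from 0.903 to 0.990 across genes, which are not independent replicates. The number of arrays limits the precision.

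The members, gene lists and alternatives were chosen with earlier results of these data known. Named are all 10 members, Fmr1, up to 4 genes per list with the smallest unadjusted p, and the 2 genes most like each member after the exclusions given above. Lists of endothelial, mural, fibroblast, oligodendrocyte lineage, neuronal and choroid plexus markers were measured too, with median differences of -0.30 (endothelial), 0.08 (pericyte and smooth muscle), 0.13 (fibroblast and meningeal), 0.04 (oligodendrocyte precursor), -0.0025 (oligodendrocyte), -0.06 (neuronal) and -0.29 (choroid plexus).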

Additional observations from a re-analysis of the deposited data

Results flagged for a closer look

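Of 22 sets of 5 arrays, 1 per group for each member and Fmr1, 2 held an array far from the others by Dixon's test at the 95% level, and chance gives about 1 in 20. Sdc4 read 9.49 on Control array 1, where the next highest Control array read 8.96. Gpc3, whose values all lay below the array medians, read 5.99 on FMR1-KO array 1, where the next highest array labelled FMR1-KO read 5.77. Both arrays are among the 3 microglia-low arrays.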

How the results depend on the processing

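No member passed the adjusted threshold in any of the alternatives, and over them the adjusted p of Gpc5 ran from 0.205 to 0.9998 and its difference from 0.13 to 0.77. Gpc2, Gpc3 and Gpc5 kept their sign in all alternatives. The sign turned for Gpc1 in its dimmer probe set (-0.13), for Gpc6 and Sdc2 with the astrocyte marker mean as a covariate (-0.035 and -0.018), and for Sdc4 without the microglia-low arrays (-0.0040) and with the microglia or astrocyte mean as a covariate (-0.12 and -0.16). Gpc4 turned without the Xist-high Control arrays (-0.075), without the microglia-low arrays (-0.14) and with the microglia or astrocyte mean (-0.22 and -0.27). Sdc3 turned with array weights (-0.022), without the microglia-low arrays (-0.16) and with the microglia or astrocyte mean (-0.10 and -0.12). Sdc1 turned with the mean of its probe sets (0.024), array weights (0.052), its dimmer probe set (0.072) and without the microglia-low arrays (0.078). Leaving out 1 array at a time gave -0.091 to 0.23 for Gpc4, -0.089 to 0.067 for Sdc1 and -0.063 to 0.11 for Sdc3. The cause of these turns was not tested. At an unadjusted p under 0.05 there was 1 member (Gpc5), 0 to 3 with 1 array left out (0 without FMR1-KO array 1 or 2 or Control array 2, 3, 4 or 5, 2 without Control array 1, 3 without FMR1-KO array 5), 0 without the Xist-high arrays and 0 with either covariate. A higher mean was found for 8 members, 5 with the microglia mean and 3 with the astrocyte mean as a covariate. Over all genes, 0 were called, and 0 to 1 with 1 array left out (Cnbd2 without Control array 5) and 1 without the microglia-low arrays (Tlcd1), both named after their values were seen. The count at an unadjusted p under 0.05 was 1334, and 794 to 2425 with 1 array left out, 718 without the Xist-high arrays and 781 with the microglia mean as a covariate. The median of the linker genes was 0.12 without the Xist-high arrays, of the polymerases -0.16 without the microglia-low arrays, of the lysosomal genes -0.040 with the microglia mean, and of the other proteoglycans -0.16 to 0.0071 with 1 array left out. The median of the synaptic list was -0.014 with the microglia mean and -0.00046 with the astrocyte mean, and that of the binding factors -0.050 with the astrocyte mean.

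Same-numbered arrays of the groups showed no clear pairing, though 10 arrays cannot exclude it. For same-numbered arrays the correlation of deviations from the group means ran from -0.015 to 0.53, and 1 of 10 arrays correlated best with its own number. With the replicate number as a block, 0 genes were called, 2080 genes and 2 members lay at an unadjusted p under 0.05, and the adjusted p was 0.326 for Gpc5 (difference 0.56) and 0.366 for Sdc2 (difference 0.42). The SE with the block was 0.17 for Gpc5 and 0.16 for Sdc2, against 0.24 and 0.23 without it.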
